A study of Homo sapiens with 2 samples.

Results

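The proteasome genes of 2 human lung cancer lines were described from RNA-seq. The members were all protein-coding symbols that begin with PSMA to PSMG followed by a digit. There were 48 such symbols with 142 transcripts, of 19089 symbols with protein-coding rows and 65535 transcripts in all. One of them, PSMC3IP, matches the spelling only and encodes a protein of meiotic recombination, which leaves 47 genes for subunits, activators and assembly factors. The ATPase gene PSMC6 had no row under this symbol and was not analysed here. MTAC-P, per the labels, was derived from PC9 and is resistant to EGFR tyrosine kinase inhibitors. PC9, the parent line, is a lung adenocarcinoma line with an activating EGFR deletion that is sensitive to these inhibitors. Both were grown in DMEM with serum, and the labels name no inhibitor at harvest. Each line has 1 library, although the series text speaks of triplicates, so nothing below has a replicate check and no test was made.

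The proteasome degrades proteins tagged with ubiquitin. Its 20S core is a stack of rings of alpha and beta subunits, some beta subunits cut peptide bonds, and the 19S particle on its end recognises, unfolds and feeds in the substrate. In cells exposed to interferon or inflammatory cytokines, the catalytic subunits encoded by PSMB5, PSMB6 and PSMB7 are replaced by those of PSMB8, PSMB9 and PSMB10 in newly made cores. These immunoproteasomes favour peptides that MHC class I molecules present. Transcription of the constitutive subunits is raised together by NFE2L1, also called NRF1, when proteasome activity falls short.

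The upstream sequences of the catalytic subunits that the results turn on come from RefSeq on GRCh38.p14, the assembly that hg38 names. They are the 250 bases before the RefSeq start nearest to that of the most abundant transcript placed on the reference chromosome, written on the gene's strand. For PSMB10 most of this window overlaps the first exon of the listed transcript, and 30 bases around the match are shown. The windows of PSMB8 (chr6:32844048-32844297, minus strand), PSMB9 (chr6:32853942-32854191, plus strand), PSMB10 (chr16:67936852-67936881, minus strand) and PSMB5 (chr14:23035221-23035470, minus strand) follow. Capitals mark matches to 4 motifs, searched on both strands.
PSMB8: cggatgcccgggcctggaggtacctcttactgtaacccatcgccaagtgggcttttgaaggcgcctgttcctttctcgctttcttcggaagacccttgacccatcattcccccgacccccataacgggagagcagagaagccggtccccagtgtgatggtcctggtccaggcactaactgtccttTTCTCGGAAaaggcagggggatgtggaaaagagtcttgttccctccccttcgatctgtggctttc
PSMB9: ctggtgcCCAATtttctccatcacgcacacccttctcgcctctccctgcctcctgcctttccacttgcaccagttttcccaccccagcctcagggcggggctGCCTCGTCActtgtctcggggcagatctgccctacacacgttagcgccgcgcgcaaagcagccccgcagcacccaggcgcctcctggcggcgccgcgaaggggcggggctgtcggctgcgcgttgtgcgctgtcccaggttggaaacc
PSMB10: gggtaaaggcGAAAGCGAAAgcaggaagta
PSMB5: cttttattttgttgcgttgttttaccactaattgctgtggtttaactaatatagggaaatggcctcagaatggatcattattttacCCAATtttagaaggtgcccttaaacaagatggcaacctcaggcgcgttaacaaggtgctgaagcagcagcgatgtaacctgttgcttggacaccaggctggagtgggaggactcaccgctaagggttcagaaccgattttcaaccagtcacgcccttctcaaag

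The motifs were the core of the interferon-stimulated response element (GAAA, any 2 bases, GAAA), the GAS element bound by STAT dimers (TTCNNNGAA), the core of the antioxidant response element (TGACNNNGC), which NFE2L1 and NFE2L2 bind, and the CCAAT box (CCAAT). No 2 matches overlapped in these 4 sequences. PSMB8 holds a GAS element that begins 65 bases before the start. In the PSMB9 window an antioxidant response element core begins 148 bases before the start and a CCAAT box 243 bases before it. PSMB10 holds an interferon-stimulated response element core 21 bases before the RefSeq start. That start lies 237 bases downstream of the start of the listed PSMB10 transcript, so the match is not upstream of that transcript. PSMB5 holds a CCAAT box that begins 164 bases before its start. Over 50 windows of 41 of the 47 genes, 10% held the interferon element core, 14% the GAS element, 26% the antioxidant element core and 38% the CCAAT box. The shares over all 35116 RefSeq windows of the same length were 3.02%, 6.57%, 10.9% and 32.0% in the same order. These are letter matches and were not tested as binding sites.

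The authors' values are 1 per transcript and were taken as FPKM, a fragment count divided by transcript length and library size, a scale on which genes can be compared per length. The transcripts of a gene were summed, and the log2 ratio is log2((MTAC-P + 1)/(PC9 + 1)), which understates differences of low genes. The number of reads behind a value is unknown. The tables list 89 of the 206 protein-coding transcripts that GENCODE release 29 gives these 48 genes, all of them for 11 genes, a part for 36 and none for PSMB3, whose listed transcript is not in that release. A gene's value is therefore that of its listed transcripts. In bulk RNA, a change in the number of cells of a kind and a change in RNA per cell cannot be told apart. Epithelial markers marked both lines: EPCAM, the epithelial adhesion molecule, stood at 156 FPKM in MTAC-P and 161 in PC9, and the 9 of 10 epithelial and lung adenocarcinoma markers compared had log2 ratios from -0.35 to 0.46. The lung lineage factor NKX2-1 was listed at 0 in MTAC-P and stood at 0.0787 FPKM in PC9.

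Proteasome genes stood at almost the same level in both lines. Their summed value was 4075 FPKM in MTAC-P and 4120 in PC9, which is 0.595% and 0.594% of all listed FPKM. Of the 47 genes, 42 averaged 1 FPKM or more across the 2 libraries and were compared. The median log2 ratio of these 42 was -0.02, the same as the -0.02 of all 10569 coding symbols compared. Among the 42, 20 lay above 0 and 22 below. One, PSMB8, reached 2-fold on this scale, and it was higher in MTAC-P. Of all coding symbols compared 6.37% reached 2-fold, 2.87% as higher and 3.50% as lower, so the share among proteasome genes was not above the background. Differences of less than 0.5 were found for 35 of the 42 (83.3%), against 76.6% of all coding symbols compared and 79.4% of the 7557 with a mean of at least 5 FPKM. All 42 had such a mean, and of those 7557 symbols 4.88% reached 2-fold, 2.34% as higher and 2.54% as lower. The median level of the 42 was 57.9 FPKM, against 10.6 for all coding symbols compared.

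**Figure D1:**
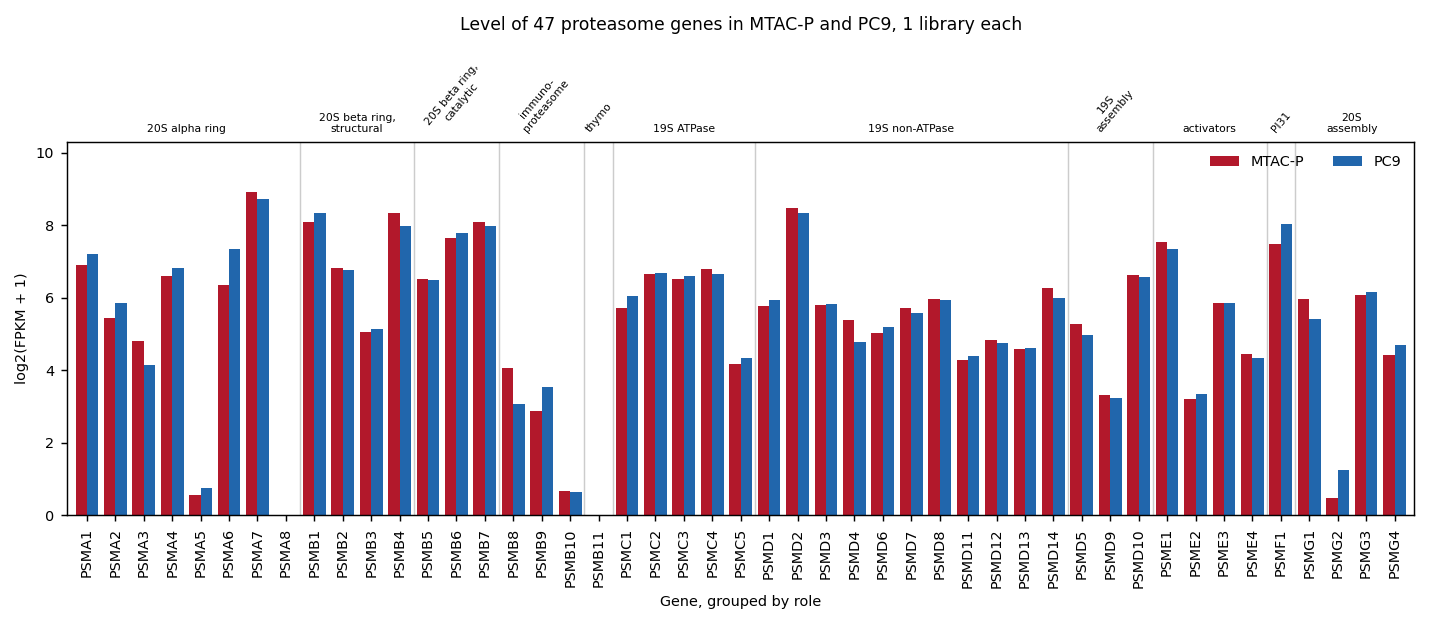
Level of the 47 proteasome genes as log2(FPKM + 1), with a bar for the 1 library of MTAC-P (red) and of PC9 (blue) for each gene, grouped by role. Neighbouring bars are of similar height for most genes, PSMB8, PSMB9 and PSMB10 are lower than PSMB5, PSMB6 and PSMB7 in both lines, and PSMA8 and PSMB11 are listed at 0.

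The immunoproteasome subunits were the low end of the catalytic genes, and their summed values did not differ in the same direction. PSMB8 (chromosome 6, 32840717 to 32844703), which replaces PSMB5, stood at 15.8 FPKM in MTAC-P and 7.36 in PC9, a log2 ratio of 1.01. This ratio was 0.75 with a pseudocount of 5 and 0.87 for the most abundant PSMB8 transcript alone, both short of 2-fold. PSMB9 (chromosome 6, 32844136 to 32859585), which replaces PSMB6, stood at 6.33 FPKM in MTAC-P and 10.7 in PC9, a log2 ratio of -0.67. That direction rests on 1 transcript, and the ratio was 0.33 without it and 0.03 in the transcripts of the GENCODE 29 primary assembly. The subunit gene PSMB10 (chromosome 16, 67934502 to 67937087), which replaces PSMB7, stood at 0.587 FPKM in MTAC-P and 0.560 in PC9. By the summed values, 1 immunosubunit was thus higher, 1 lower and 1 close to the same and under the mean of 1 FPKM. PSMB11, the catalytic subunit of cortical thymic epithelium, was listed at 0 in both lines.

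Their constitutive counterparts differed little. PSMB5, with chymotrypsin-like activity and the main target of bortezomib, stood at 91.0 FPKM in MTAC-P and 89.6 in PC9 (log2 ratio 0.02). PSMB6, with caspase-like activity, stood at 199 FPKM in MTAC-P and 220 in PC9 (-0.14). PSMB7, with trypsin-like activity, stood at 272 FPKM in MTAC-P and 254 in PC9 (0.10). Per length, PSMB8 was therefore 17.4% of PSMB5 in MTAC-P and 8.21% in PC9. For PSMB9 the level was 3.19% of PSMB6 in MTAC-P and 4.87% in PC9, and for PSMB10 it was 0.216% of PSMB7 in MTAC-P and 0.221% in PC9. The 3 immunosubunits summed to 4.05% of the 3 constitutive ones in MTAC-P and 3.31% in PC9. The constitutive genes had the higher level of each pair in both lines.

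The PSMB8 and PSMB9 values are sums over many transcripts, most of them outside the primary-assembly annotation. Both genes lie in the MHC, for which the human assembly carries alternative haplotype sequences, and which of these a transcript belongs to was not looked up. Reads that match several near-identical copies can be divided among them. PSMB8 had 14 listed transcripts, of which 3 are in the GENCODE 29 primary-assembly set, and all 14 were higher in MTAC-P. Of the 14, 4 were under 0.1 FPKM in both lines. Transcripts of one gene share sequence and are not independent measurements. The 3 primary-assembly transcripts summed to 2.48 FPKM in MTAC-P and 0.628 in PC9, and the other 11 to 13.3 FPKM in MTAC-P and 6.73 in PC9. PSMB8 was thus higher in MTAC-P in both sets.

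The transcript that set the direction of PSMB9 was 1 of 24 listed. ENST00000383114, which is not in the primary-assembly set, stood at 3.25 FPKM in MTAC-P and 8.44 in PC9. The other 23 summed to 3.08 FPKM in MTAC-P and 2.26 in PC9. The 3 primary-assembly transcripts summed to 0.830 FPKM in MTAC-P and 0.794 in PC9. Of the 24, 13 were higher in MTAC-P, 5 lower and 6 listed at 0 in both. Most of this count comes from 20 transcripts under 0.1 FPKM in both lines, of which 10 were higher and 4 lower. Among the 4 transcripts at 0.1 FPKM or more in either line, 3 were higher and 1 lower. GENCODE 29 also has PSMB8 and PSMB9 overlap on opposite strands over 568 bases (chromosome 6, 32844136 to 32844703), where an antisense RNA of PSMB8 lies too. The labels do not say that strand was kept, so reads there cannot be assigned to one gene. The most abundant primary-assembly transcript of PSMB8 begins at 32844047 on the minus strand. That of PSMB9 begins within 31 bases of 32854192 on the plus strand, so neither reaches the overlap. Whether the other listed transcripts reach into it was not looked up. How much such reads add to the separate values of PSMB8 and PSMB9 is therefore unknown.

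**Figure D2:**
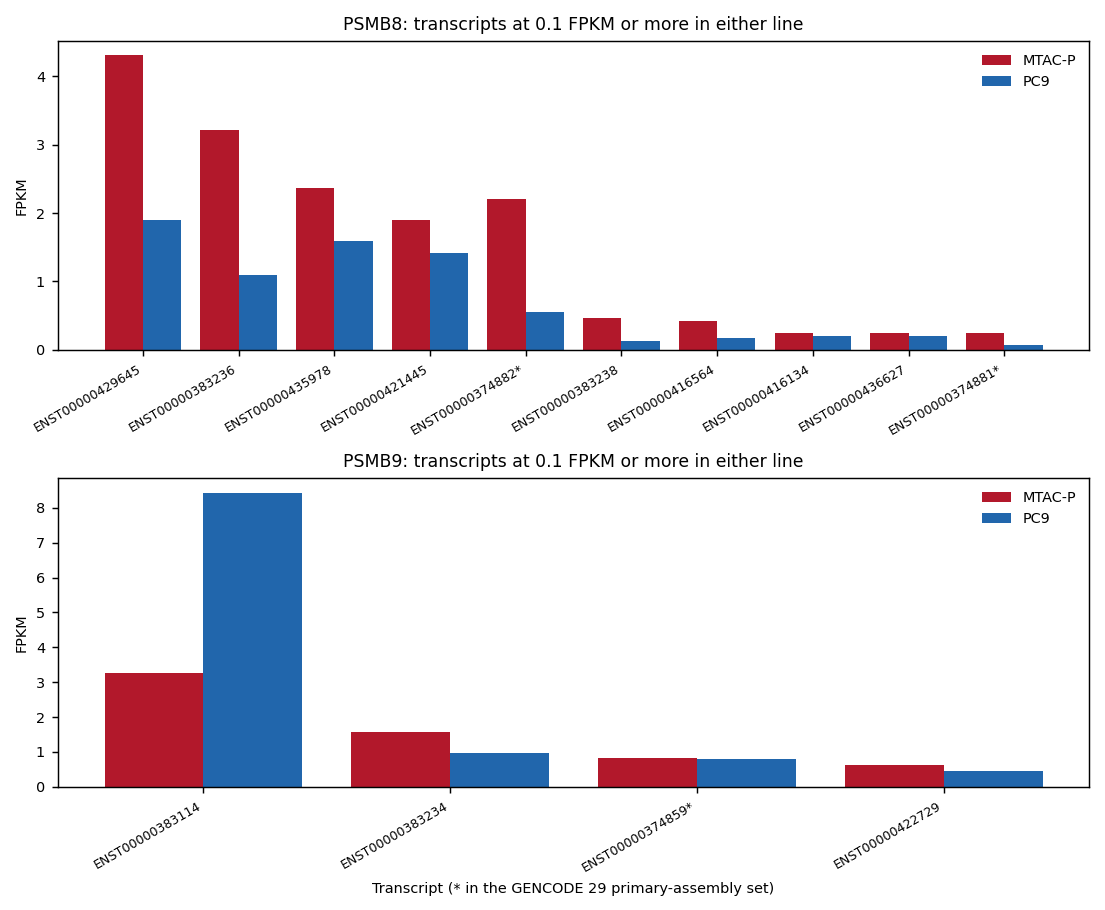
FPKM of each PSMB8 transcript (top) and PSMB9 transcript (bottom) at 0.1 FPKM or more in either line, with MTAC-P in red and PC9 in blue; asterisks mark the GENCODE 29 primary-assembly set. All 10 PSMB8 transcripts shown are higher in MTAC-P, while for PSMB9 the most abundant of 4 is lower and the other 3 are higher in MTAC-P.

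Alpha subunits, which form the outer rings and the gate of the core, spread more widely than the other constitutive subunits. Of 6 compared, 2 lay above 0 and 4 below, with a median of -0.27. PSMA6 (chromosome 14, 35278633 to 35317493) stood at 81.4 FPKM in MTAC-P and 163 in PC9, a log2 ratio of -0.99 that falls just short of 2-fold, and a pseudocount of 0.1 took it just past that limit. This value rests on 1 listed transcript of the 9 coding ones in GENCODE 29. PSMA3 (chromosome 14, 58244831 to 58272012) stood at 27.0 FPKM in MTAC-P and 16.8 in PC9, a log2 ratio of 0.65, and both of its listed transcripts were higher in MTAC-P. The alpha subunits with the lowest and the highest ratio were therefore encoded on the same chromosome.

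The other alpha subunits lay closer together. PSMA2 stood at 42.2 FPKM in MTAC-P and 56.6 in PC9 (log2 ratio -0.42), with all 3 listed transcripts lower. PSMA1 stood at 118 FPKM in MTAC-P and 148 in PC9 (-0.32). Both were lower in MTAC-P, and PSMA4 (96.8 FPKM in MTAC-P, 112 in PC9, -0.21) was lower by less. PSMA7, the most abundant of the 47 PSM genes in both lines, stood at 479 FPKM in MTAC-P and 419 in PC9 (0.19). PSMA5 stood at 0.485 FPKM in MTAC-P and 0.678 in PC9, although every core needs its protein, and 1 of its 2 coding transcripts was listed. PSMA8, the testis form of PSMA7, was listed at 0 in both lines.

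The structural beta subunits, which complete the inner rings, were within 0.36 of no difference. PSMB4 stood at 322 FPKM in MTAC-P and 251 in PC9 (log2 ratio 0.36), and PSMB1 at 274 FPKM in MTAC-P and 321 in PC9 (-0.23). Both have a single coding transcript in GENCODE 29, which was listed, so that no unlisted transcript bears on them. PSMB2 stood at 112 FPKM in MTAC-P and 109 in PC9 (0.04), and PSMB3 at 32.3 FPKM in MTAC-P and 34.0 in PC9 (-0.07).

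Genes of the 19S particle differed little between the lines. The 16 compared, 5 ATPases and 11 other subunits, had a median log2 ratio of -0.03 and a range from -0.32 to 0.62. The ATPases PSMC1 to PSMC5 form most of the ring that unfolds the substrate. PSMC1 stood at 51.9 FPKM in MTAC-P and 65.2 in PC9 (-0.32), and PSMC5 at 17.0 FPKM in MTAC-P and 19.3 in PC9 (-0.17). Near no difference were PSMC2 (99.4 FPKM in MTAC-P, 102 in PC9) and PSMC3 (90.3 FPKM in MTAC-P, 96.3 in PC9), and PSMC4 (109 FPKM in MTAC-P, 101 in PC9) had the highest ratio of the ATPases, 0.12.

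Among the other 19S subunits PSMD4 and PSMD14 had the highest ratios. PSMD4, a ubiquitin receptor (chromosome 1, 151254703 to 151267479), stood at 41.0 FPKM in MTAC-P and 26.4 in PC9, a log2 ratio of 0.62, with all 3 listed transcripts higher in MTAC-P. PSMD14, the enzyme that removes ubiquitin from the substrate, stood at 75.8 FPKM in MTAC-P and 62.9 in PC9 (0.27). The lowest ratios were those of PSMD6 (31.6 FPKM in MTAC-P, 35.7 in PC9, -0.17) and of the scaffold subunit PSMD1 (54.2 FPKM in MTAC-P, 60.1 in PC9, -0.15). PSMD2, the other large scaffold subunit, had the highest summed value of the 16 PSMC and PSMD genes for 19S subunits, 357 FPKM in MTAC-P and 323 in PC9 (0.15). That rank rests on short transcripts. ENST00000417952, of 721 nt, made up 72.4% of the sum in MTAC-P and 78.4% in PC9. ENST00000432855, of 609 nt, made up 17.6% in MTAC-P and 16.2% in PC9. The transcript of 3449 nt, ENST00000310118, stood at 0.683 FPKM in MTAC-P and 0.484 in PC9. By their sums, the remaining 6 (PSMD3, PSMD7, PSMD8, PSMD11, PSMD12 and PSMD13) lay between -0.11 and 0.12. For PSMD13, 91.0% of the sum in MTAC-P and 97.7% in PC9 was ENST00000382671, a target of nonsense-mediated decay in GENCODE 29. Its listed coding transcripts were low and higher in MTAC-P. ENST00000352303 stood at 1.55 FPKM in MTAC-P and 0.135 in PC9, and ENST00000431206 at 0.526 FPKM in MTAC-P and 0.396 in PC9.

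PSMD4 and PSMB4 lie near each other on chromosome 1, and the chromosome as a whole stood higher in MTAC-P. Its 3 proteasome genes compared, PSMD4, PSMB4 and PSMB2, had a median log2 ratio of 0.36, against 0.17 for the 1069 coding symbols compared there. The part of the chromosome in these ratios was not tested. On chromosome 14, with 6 proteasome genes compared, their median was -0.07 and that of 315 coding symbols -0.05. On chromosome 17, with 7 compared, the values were -0.07 and -0.06.

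**Figure D3:**
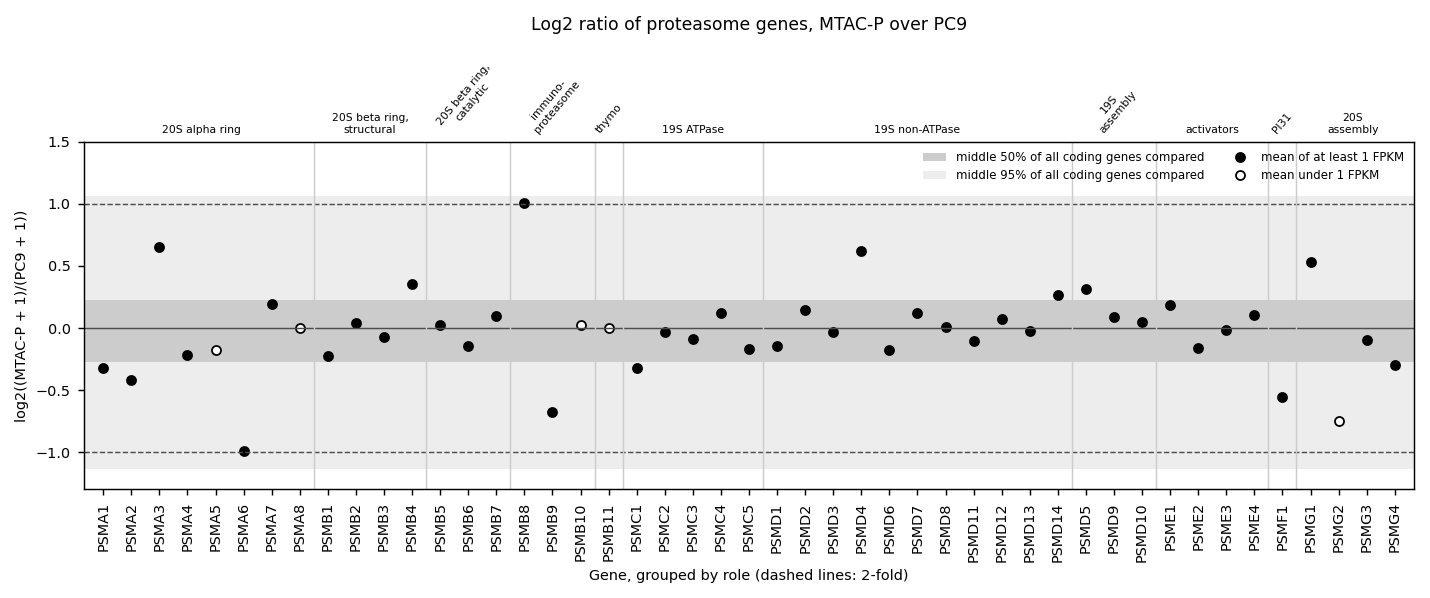
Log2 ratio of MTAC-P over PC9 for the 47 proteasome genes, grouped by role, with filled points for genes averaging 1 FPKM or more and bands for the middle 50% and 95% of all coding symbols compared. PSMB8 at 1.01 is the highest and PSMA6 at -0.99 the lowest, and the 19S genes lie from -0.32 to 0.62.

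The inhibitor gene stood lower in MTAC-P. PSMF1 encodes PI31, first described as an inhibitor of the core (chromosome 20, 1113263 to 1189415). It stood at 177 FPKM in MTAC-P and 260 in PC9, a log2 ratio of -0.56. Most of this came from a short transcript of 319 nt, ENST00000435720, at 131 FPKM in MTAC-P and 209 in PC9. The 5 longer transcripts were not all lower: 2 were higher in MTAC-P and 3 lower.

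Activators that cap the core in place of the 19S particle were close in both lines. PSME1 and PSME2, which lie close together on chromosome 14 and jointly form the interferon-inducible activator, had unequal levels. PSME1 stood at 185 FPKM in MTAC-P and 162 in PC9 (log2 ratio 0.19), and PSME2 at 8.17 FPKM in MTAC-P and 9.24 in PC9 (-0.16). PSME2 was thus 4.41% of PSME1 in MTAC-P and 5.68% in PC9, with 1 of its 5 coding transcripts listed. PSME3, the nuclear activator, stood at 56.6 FPKM in MTAC-P and 57.1 in PC9 (-0.01).

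PSME4, which encodes the large activator PA200, had nearly equal sums and a different make-up. The sum stood at 20.9 FPKM in MTAC-P and 19.3 in PC9 (log2 ratio 0.11). Its 1 coding transcript in GENCODE 29, ENST00000404125, stood at 9.07 FPKM in MTAC-P and 15.3 in PC9. That transcript made up 43.4% of the gene's listed value in MTAC-P and 79.2% in PC9. ENST00000389993, which GENCODE 29 places among targets of nonsense-mediated decay, stood at 8.37 FPKM in MTAC-P and 4.01 in PC9. Another transcript, ENST00000421748, stood at 3.46 FPKM in MTAC-P and 0.000159 in PC9. The coding transcript was lower and the others higher in MTAC-P, and how well such transcripts are told apart cannot be given without intervals.

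Assembly factors of the core differed by member. PSMG1, which with PSMG2 forms the dimer that starts the alpha ring (chromosome 21, 39174769 to 39183851), stood at 61.1 FPKM in MTAC-P and 41.9 in PC9, a log2 ratio of 0.53. Its coding transcript ENST00000380900 stood at 24.5 FPKM in MTAC-P and 17.4 in PC9. The decay-class ENST00000411828 stood at 18.3 FPKM in MTAC-P and 4.76 in PC9, a larger part of the difference, and the decay-class ENST00000431628 at 18.3 FPKM in MTAC-P and 19.8 in PC9. PSMG2 stood at 0.406 FPKM in MTAC-P and 1.36 in PC9, from 1 of 4 coding transcripts, and lies under the mean of 1. PSMG3 (66.3 FPKM in MTAC-P, 70.8 in PC9, -0.09) and PSMG4 (20.3 FPKM in MTAC-P, 25.1 in PC9, -0.30), which act as another pair, were lower by less than 0.5.

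Chaperones of the 19S base all lay above 0. PSMD5 stood at 38.0 FPKM in MTAC-P and 30.4 in PC9 (log2 ratio 0.31), with all 4 listed transcripts higher. PSMD9 stood at 9.02 FPKM in MTAC-P and 8.43 in PC9 (0.09). With the 2 of its 3 transcripts that are in the primary-assembly set, its log2 ratio was -0.60. PSMD10, or gankyrin, stood at 98.4 FPKM in MTAC-P and 94.9 in PC9 (0.05). Within PSMD10, ENST00000372295 stood at 0.0742 FPKM in MTAC-P and 5.84 in PC9, while the main transcript ENST00000217958 stood at 63.5 FPKM in MTAC-P and 59.5 in PC9. PSMC3IP, the symbol that is no proteasome gene, stood at 2.99 FPKM in MTAC-P and 6e-05 in PC9, a log2 ratio of 1.996, and is the second of the 48 symbols at 2-fold.

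Genes that work with the proteasome but carry other names were as close as the subunits. Of 20 partners compared, such as shuttle receptors, deubiquitinases and ubiquitin-activating enzymes, none reached 2-fold, and the median log2 ratio was -0.01. SHFM1, a small 19S subunit, stood at 1092 FPKM in MTAC-P and 1103 in PC9, and RAD23B, a shuttle receptor, at 180 FPKM in MTAC-P and 230 in PC9 (-0.35). NFE2L1, the regulator of subunit genes, stood at 16.4 FPKM in MTAC-P and 18.3 in PC9 (-0.15), and NFE2L2 at 36.5 FPKM in MTAC-P and 26.9 in PC9 (0.43). Of 14 such regulators, MAFF, a small partner of both, was the 1 at 2-fold, with 34.0 FPKM in MTAC-P and 15.0 in PC9 (1.13). Other complexes of many subunits gave medians of -0.05 for the chaperonin TRiC, with CCT8 lower at -1.47, and 0.05 for the COP9 signalosome, with COPS6 at -0.10 and COPS3 at 0.14.

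Regulators of the immunosubunits differed in both directions. Of 16 compared, 12 lay above 0, 1 was higher by 2-fold or more and 2 were lower by as much, with a median of 0.20. NLRC5, the transactivator of MHC class I genes and of PSMB9 and TAP1, stood at 3.47 FPKM in MTAC-P and 1.11 in PC9 (1.08). IRF1, which binds the interferon element, stood at 5.56 FPKM in MTAC-P and 3.09 in PC9 (0.68). Some interferon signalling components were lower instead. The receptor subunit gene IFNGR2 stood at 2.38 FPKM in MTAC-P and 7.48 in PC9 (-1.33), and IFNAR2 at 3.08 FPKM in MTAC-P and 7.78 in PC9 (-1.11). The interferon genes IFNG and IFNB1 were listed at 0 in both lines. Of 28 interferon-stimulated genes, 13 were compared and the rest lay under the mean of 1 FPKM. None of the 13 reached 2-fold and the median was 0.16, with BST2 at -0.13 and IFITM3 at 0.35. Under that mean, GBP1 stood at 1.23 FPKM in MTAC-P and 0.0697 in PC9 (1.06). In the other direction, IFIT1 stood at 0.137 FPKM in MTAC-P and 1.13 in PC9 (-0.91), and OAS1 at 0.001 FPKM in MTAC-P and 0.783 in PC9 (-0.83).

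The peptide-loading genes that act after the immunoproteasome had a median of 0.05 over 15 compared, with none at least 2-fold higher. TAP1, a subunit of the peptide transporter that shares a divergent promoter with PSMB9, stood at 5.92 FPKM in MTAC-P and 3.21 in PC9 (0.71), from 7 listed transcripts, 6 of them higher in MTAC-P. The 1 primary-assembly transcript of TAP1 had a log2 ratio of 0.09. TAP2, the other subunit, stood at 21.8 FPKM in MTAC-P and 17.1 in PC9 (0.33). B2M stood at 0.0987 FPKM in MTAC-P and 0.00972 in PC9, with none of its coding transcripts listed.

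Leukocytes express immunosubunits at high levels, and their markers were looked at beside PSMB8. Of 17 leukocyte markers 4 had a mean of at least 1 FPKM, all 4 lay above 0, and the 17 summed to 47.1 FPKM in MTAC-P and 37.0 in PC9, most of it CD68. The pan-leukocyte marker PTPRC stood at 0.0460 FPKM in MTAC-P and 0.0910 in PC9. CD3D, MS4A1 and ITGAM were listed at 0 in MTAC-P. The part of the leukocyte markers in the PSMB8 value was not tested.

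**Figure D4:**
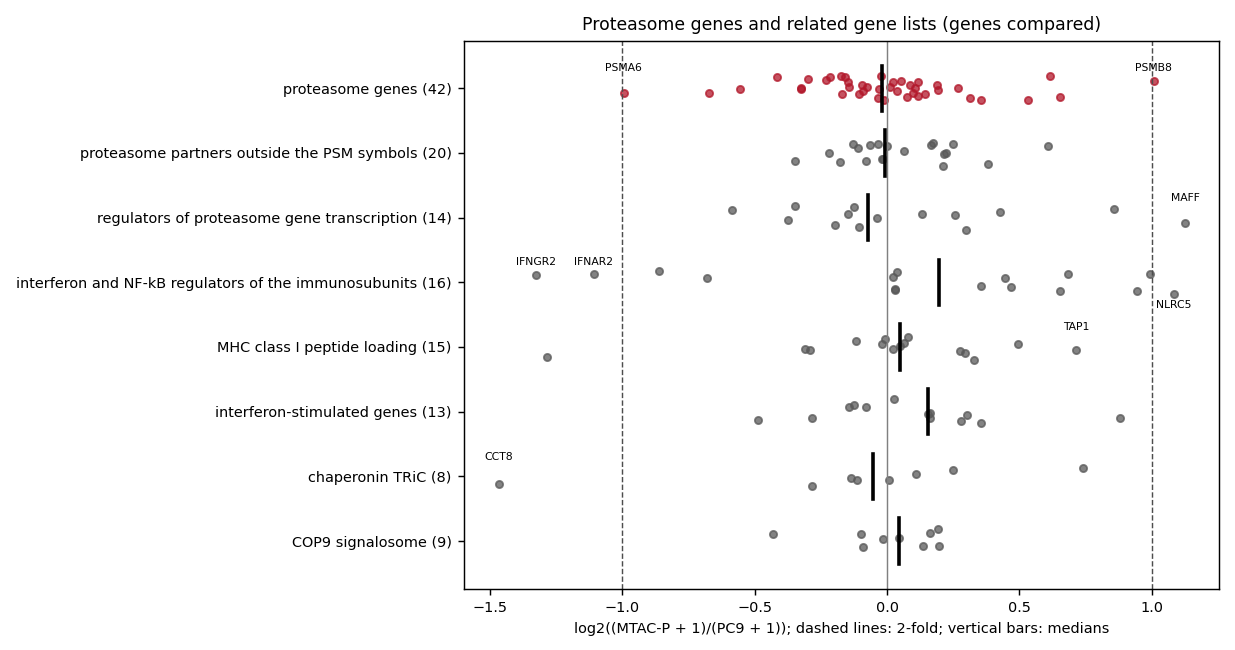
Log2 ratio of MTAC-P over PC9 for each gene averaging 1 FPKM or more among the 42 proteasome genes (red) and 7 related gene lists (grey), with the number of genes in parentheses, dashed lines at 2-fold and a bar at each median. The proteasome genes and their partners centre on -0.02 and -0.01, and the regulators of the immunosubunits spread from -1.33 to 1.08.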

How the data were processed

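Total RNA of MTAC-P and PC9 was sequenced, with 1 library each. The submitters' processing notes name Trim Galore, TopHat, Cufflinks and hg38. Versions, strand setting and annotation release are not given in the sources used here. Tables deposited by the authors hold a value for each transcript, which was read as FPKM since Cufflinks reports that unit. The tables name no unit and hold no counts or intervals. They end at transcript number 437205 after 65535 rows, and later transcripts were not analysed here.

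Each library was assigned to its line by its sample record. Protein-coding rows were summed per symbol, and 13 pseudogene rows, 3 of them above 0, were left out. The log2 ratio used a pseudocount of 1, and symbols with a mean of at least 1 FPKM were compared. Positions, transcript classes and lengths come from GENCODE release 29 (GRCh38). With 1 library per line there are no p-values, and depth is unknown, so no interval is given. The members, gene lists and alternatives were chosen with earlier results of these data known. Named genes are all members, of each other list those at 2-fold (or else the 2 most abundant), and TAP1, TAP2, B2M, NLRC5, IRF1, NFE2L1 and NFE2L2. Some genes that this rule names are not reported here. A few cell markers, IFNG, IFNB1, GBP1, IFIT1 and OAS1 were named after their values were seen. Simulated data without noise were run through the steps. This checks the arithmetic only and says nothing of false calls with 1 library per line. Python 3.11.15, pandas 2.3.3 and NumPy 2.4.6 were used.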

Additional observations from a re-analysis of the deposited data

How the results depend on the processing

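Of the 43 symbols compared, PSMC3IP included, 2 reached 2-fold. This count became 0 with a pseudocount of 5, 1 (PSMB8) at a mean of at least 5 FPKM, 6 at 1.5-fold and 1 (PSMB8) among genes with all coding transcripts listed. Under the first 3 of these, 2.21%, 4.88% and 18.3% of all coding symbols passed. It was 2 or 3 under the other 8 alternatives. PSMA6 just passed 2-fold, as lower, with a pseudocount of 0.1 and with equal upper quartiles. With the most abundant transcript of each gene alone, PSMB8 fell short (0.87) and PSMB9 passed as lower (-1.15), while PSME4 stood at -0.70. The median over members was -0.01 and stayed between -0.02 and 0.06 under the 11 alternatives that give one. Of 491 values of single members, 484 stayed on the same side of the limit, 4 lost the call, 3 gained it and 0 turned round while called. PSMB9, which was not at 2-fold, turned to 0.03 in the primary-assembly set and to 0.33 without its main transcript. The primary-assembly set, genes with all coding transcripts listed and PSMB9 without its main transcript were chosen after seeing the data. Depth is unknown, so low values such as those of PSMB10 and PSMA5 have no stated precision. No paired analysis was possible because there is a single library of MTAC-P and of PC9, so no replicate could be left out either.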
